A study of Mus musculus with 6 samples.

Results

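A set of 10 genes of the tumour necrosis factor (TNF) superfamily and its receptors was followed in mouse macrophages on 2 titanium surfaces. They were the ligand genes Tnf and Tnfsf9 and the receptor genes Tnfrsf1a, Tnfrsf1b, Cd40, Tnfrsf9, Tnfrsf12a, Tnfrsf14, Fas and Tnfrsf10b, taken by gene symbol. All 10 were among the 16171 genes of the count table. Raw264.7 is a mouse macrophage line derived from a tumour induced by Abelson leukaemia virus, and the labels give its genotype as WT. The control cells grew on titanate nanowires formed on titanium by alkaline heat treatment (TH, 3 RNA-seq libraries), and the other cells grew on a bionic calcium phosphate nanowire coating (THCaP, 3 libraries). In both groups cells sat on the surface for 12 h, were given 1 µg/mL lipopolysaccharide (LPS, a bacterial cell wall component) for 2 h and were then kept for 1 d. Because LPS was given to both groups, a difference between surfaces could lie in the LPS response or in the level without LPS, and these cannot be told apart. Nothing in the labels tells if replicate libraries stem from independent cultures, so p-values measure the spread between these libraries, which may be technical.

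TNF is made as a membrane-bound trimer that the protease ADAM17 can shed, and it is a classic early product of LPS-stimulated macrophages. Ligands of the family cluster their receptors at the cell surface. Receptors with a cytoplasmic death domain, such as TNFR1 and FAS, recruit TRADD or FADD and can lead to NF-κB signalling or to caspase activation, whereas receptors such as TNFR2, CD40 and 4-1BB bind TRAF adaptors directly. Several genes of the family are themselves NF-κB targets.

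Library totals ran from 28000099 to 30317108 counts, and 3 counts, the limit that a count of 0 allows, were at most 0.107 CPM (CPM is the count scaled to a common library total); this limit covers counting error only. Of the 10 macrophage markers examined, 9 had a mean of at least 1 CPM (Mertk did not), and their summed level was 2869 to 3394 CPM in the TH libraries and 3149 to 3382 CPM in THCaP. Markers of stromal, T and NK, B and neutrophil cells were all below a mean of 1 CPM, as were the endothelial markers other than Pecam1. The 5 endothelial markers summed to 5.10 to 6.33 CPM in TH and 2.95 to 5.01 CPM in THCaP, and their part in the results was not tested. Levels below are CPM scaled by TMM factors, which adjust library totals for composition, as mean ± SD over 3 libraries. A change is the log2 fold change of THCaP over TH, with its standard error (SE), and a gene was called at an adjusted p under 0.05 in edgeR's quasi-likelihood test over all 11480 genes that passed a low-count filter.

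Of the 10 genes 7 were lower on THCaP and 0 were higher: Fas, Cd40, Tnfrsf9, Tnfrsf12a, Tnfsf9, Tnfrsf1b and Tnf fell, and Tnfrsf10b, Tnfrsf14 and Tnfrsf1a were not called. That is 7 of 10 called lower beside 12.0% of all tested genes, and 0 of 10 called higher beside 11.6%. The 10 genes and the gene lists below were chosen with earlier results of these data known. Their counts beside the all-gene shares are therefore no independent evidence. Over all genes 1376 were called lower and 1333 higher; scaling by library totals alone made these 1063 and 1904, and the 10 genes again gave 7 lower and 0 higher. The all-gene counts also moved with single libraries. Without TH replicate 1 there were 1378 lower and 1071 higher genes. Dropping TH replicate 2 left 506 lower and 294 higher genes, and dropping TH replicate 3 left 490 lower and 294 higher. Of the THCaP libraries, dropping replicate 1 left 465 lower and 291 higher, dropping replicate 2 left 937 lower and 734 higher, and dropping replicate 3 gave 2020 lower and 2145 higher. The 10 genes gave 6 to 7 lower and 0 higher in these fits. All 10 passed the filter, but Fas passed through the TH libraries alone. The median log2 fold change of the 10 was −0.66, against 0.0064 for all tested genes. All 3 THCaP libraries lay below all 3 TH libraries for 8 of the 10, the 7 called genes and Tnfrsf10b, a pattern found in 21.3% of tested genes. In bulk RNA, fewer cells that express a gene and less RNA per cell cannot be told apart.

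**Figure D1:**
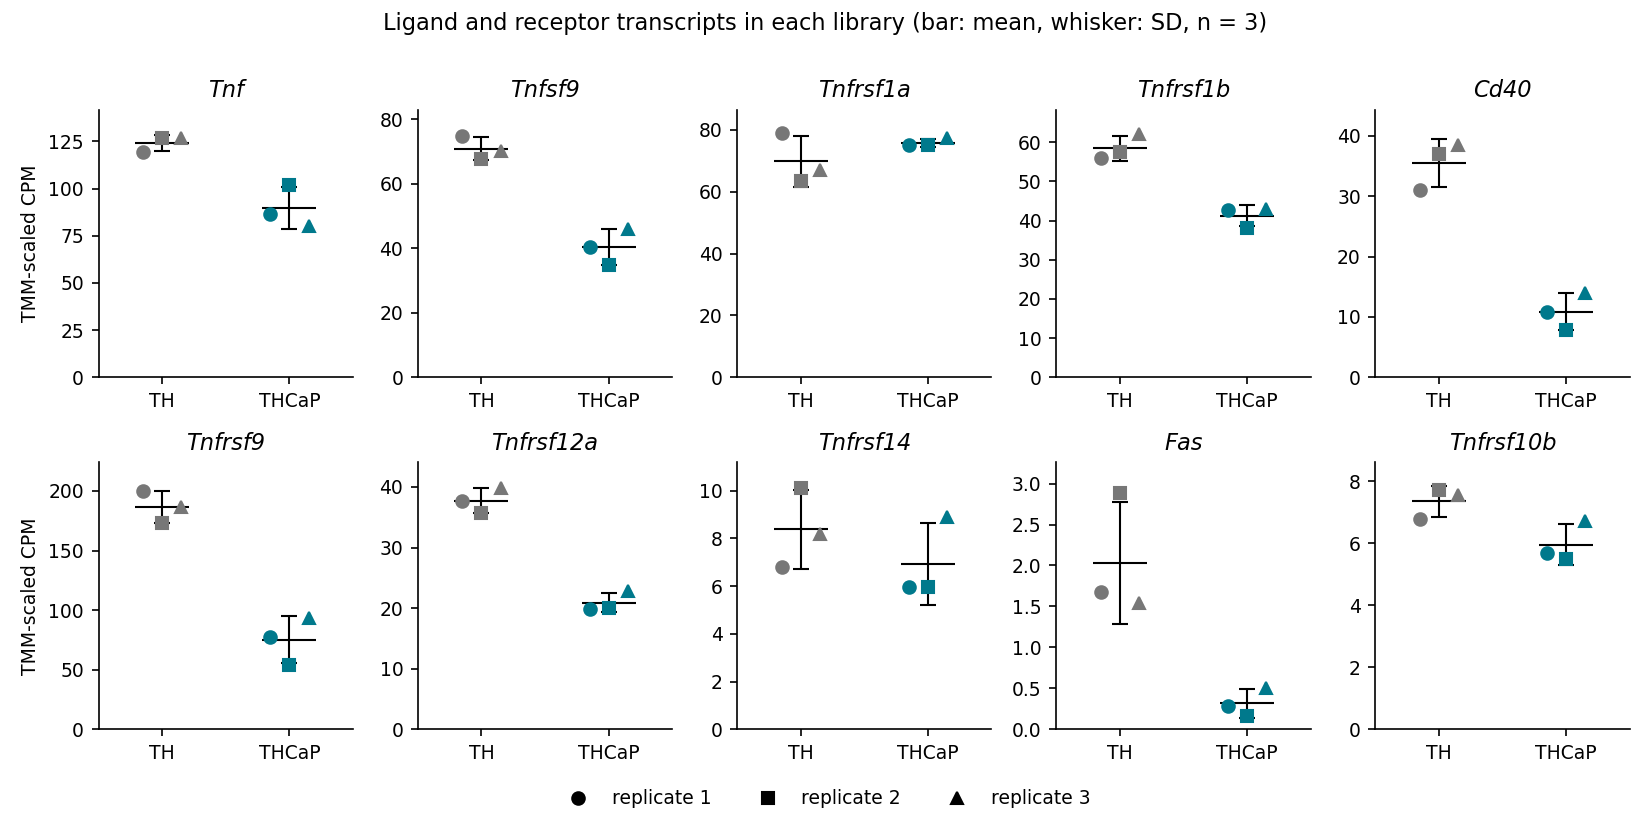
TMM-scaled CPM of each gene in the 6 libraries, with a separate linear axis from 0 for each gene. Points are libraries (shape gives the replicate), bars are group means and whiskers are SD; the groups overlap for Tnfrsf1a and Tnfrsf14 and are apart for the other 8 genes.

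Tnf, the founding ligand of the family, was at 119, 127 and 127 CPM in TH replicates 1, 2 and 3 and at 86.5, 102 and 80.2 CPM in THCaP replicates 1, 2 and 3. The surfaces did not overlap, and the 3 TH libraries lay closer together than the 3 THCaP libraries. The mean went from 124 ± 4.39 to 89.6 ± 11.3 CPM, 1.39-fold lower (log2 fold change −0.47 with an SE of 0.10 and an edgeR adjusted p = 0.0118). The call was lost without TH replicate 2 (adjusted p = 0.0529), TH replicate 3 (0.0531) or THCaP replicate 1 (0.0605), where the log2 fold change was −0.46, −0.46 and −0.45. Tnf lies on chromosome 17 at 35199381 to 35202007, minus strand (GRCm38, GENCODE vM21), between 2 other ligand genes of the family. Ltb, which encodes lymphotoxin beta, lies at 35194439 to 35196320 on the plus strand and was at 96.9, 79.3 and 76.8 CPM in the TH libraries and 57.5, 65.5 and 53.0 CPM in THCaP. It fell by 0.52 on the log2 scale (SE 0.11, edgeR adjusted p = 0.0139, but 0.0581 without THCaP replicate 1). Lta, lymphotoxin alpha, at 35203165 to 35205351 on the minus strand, was sparse, with 106 counts summed over TH and 63 over THCaP, and was not called (−0.78 with an SE of 0.32, edgeR adjusted p = 0.102).

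A pair of regulatory stretches of Tnf are shown because its RNA level is known to depend on both promoter activity and RNA decay. The first is the 250 bases before the annotated start site, chr17:35202008-35202257, minus strand (RefSeq, GRCm38.p6), with the TATA box (TATAAA, −29 to −24 from the start site) in capitals. The second is 30 bases of the AU-rich part of the 3′ untranslated region, bases 438 to 467 after the stop codon of a GENCODE transcript. It is printed in capitals throughout because every base lies within overlapping TTATTTATT matches, the last of which runs past its end. The RNA-binding protein tristetraprolin (Zfp36) is known to bind this nonamer.
Tnf promoter: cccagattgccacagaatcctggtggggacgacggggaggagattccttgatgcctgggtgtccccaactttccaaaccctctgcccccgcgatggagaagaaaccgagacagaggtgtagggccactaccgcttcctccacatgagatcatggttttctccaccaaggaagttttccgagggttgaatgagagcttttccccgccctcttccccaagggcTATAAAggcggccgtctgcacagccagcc
Tnf AU-rich stretch: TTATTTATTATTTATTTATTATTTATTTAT

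The Tnf 3′ untranslated region of 764 bases held 5 overlapping matches to TTATTTATT. Tnfrsf10b had 1 match in 1845 bases and the other 8 genes had 0. Of 11047 tested genes with an annotated 3′ untranslated region, 8.15% held the nonamer, in regions of varying length. In the 250 bases before the start, both strands were searched for TATAAA, the AP-1 site TGANTCA, the cyclic AMP response element TGACGTCA, the core of the interferon-stimulated response element GAAANNGAAA, the GC box GGGCGG and the NF-κB consensus. RefSeq promoters were at hand for 7 of the 10 genes, in 8 windows because Tnfrsf9 has 2 annotated starts. The promoters of Cd40, Tnfsf9 and Tnfrsf10b were not used here. Of all 32851 promoter windows, 12.4% held TATAAA, 6.75% TGANTCA, 1.55% TGACGTCA, 2.98% GAAANNGAAA, 32.7% GGGCGG and 3.90% the NF-κB consensus. Of the 11783 windows of tested genes, 6.32% held TATAAA, 4.36% TGANTCA, 2.65% TGACGTCA, 2.65% GAAANNGAAA, 57.0% GGGCGG and 4.46% the NF-κB consensus. A match describes these letters and shows no binding.

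Tnfsf9, the gene of 4-1BB ligand, which activated antigen-presenting cells display to T cells, was at 74.7, 67.7 and 70.2 CPM in the TH libraries and 40.4, 34.9 and 45.9 CPM in THCaP. Every THCaP library was far below every TH library. The mean fell 1.75-fold, from 70.9 ± 3.52 to 40.4 ± 5.48 CPM (log2 fold change −0.81 with an SE of 0.11 and an edgeR adjusted p = 0.00325). It lies on chromosome 17 at 57105325 to 57107757, plus strand. Of its 1290 annotated exonic bases 192 also belong to exons of Gm11110 on the other strand, and reads of the pair cannot be separated there because the strand setting of the counting is not given.

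Tnfrsf9, the receptor 4-1BB, was at 200.3, 173 and 187 CPM in TH replicates 1 to 3 and at 77.8, 54.4 and 93.5 CPM in THCaP replicates 1 to 3. Every THCaP library was below every TH library, and the THCaP libraries were spread the more widely. The mean went from 187 ± 13.4 to 75.2 ± 19.6 CPM, 2.48-fold lower (−1.31 with an SE of 0.17, edgeR adjusted p = 0.00301). Tnfrsf9 lies on chromosome 4 at 150914562 to 150946102, plus strand. Of the 8 promoter windows, the one before its second annotated start, chr4:150927749-150927998, plus strand (RefSeq, GRCm38.p6), was the single one with a match to the NF-κB consensus (−43 to −33 from the start, overlapping matches on both strands) and it also held TGAGTCA at −15 to −9. It is shown with these matches in capitals. Counts per gene do not tell which start was used. The Fas window, which is not shown, also held TGAGTCA, at −211 to −205.
Tnfrsf9 second promoter: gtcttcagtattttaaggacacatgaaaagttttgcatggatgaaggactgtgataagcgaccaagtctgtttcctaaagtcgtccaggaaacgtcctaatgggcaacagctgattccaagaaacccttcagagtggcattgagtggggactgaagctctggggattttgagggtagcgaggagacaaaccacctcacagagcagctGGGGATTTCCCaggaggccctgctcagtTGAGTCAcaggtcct

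Cd40, the receptor through which T cells license antigen-presenting cells, was at 31.0, 37.0 and 38.5 CPM in the TH libraries and 10.8, 7.83 and 14.0 CPM in THCaP. The highest THCaP library held less than the lowest TH library. The mean fell 3.27-fold, from 35.5 ± 3.93 to 10.9 ± 3.08 CPM (−1.71 with an SE of 0.19, edgeR adjusted p = 0.00166). Cd40 lies on chromosome 2 at 165055627 to 165072948, plus strand, and stayed called in all 16 alternative analyses, with log2 fold changes from −1.93 to −1.52. Its log2 fold change lay at percentile 0.287 of all tested genes, that of Tnfrsf9 at 0.618 and that of Tnf at 9.70.

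Tnfrsf12a encodes Fn14, a short receptor induced by growth factors and injury whose ligand is TWEAK (Tnfsf12). It was at 37.7, 35.7 and 39.8 CPM in the TH libraries and 19.9, 20.1 and 22.8 CPM in THCaP. Both groups were tight and far apart. The mean fell 1.80-fold, from 37.7 ± 2.04 to 20.9 ± 1.60 CPM (−0.85 with an SE of 0.09, edgeR adjusted p = 0.00168). The gene of its ligand, Tnfsf12, stood at 0.880 ± 0.332 CPM in the TH libraries and 0.630 ± 0.355 CPM in the THCaP libraries and was not called (edgeR adjusted p = 0.473). Tnfrsf12a lies on chromosome 17 at 23675445 to 23677468, minus strand.

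Of the receptors of TNF itself, Tnfrsf1b was called and Tnfrsf1a was not. Tnfrsf1b encodes TNFR2, which lacks a death domain and binds TRAF2, and was at 55.9, 57.4 and 62.0 CPM in the TH libraries and 42.7, 38.1 and 42.9 CPM in THCaP. The libraries of the surfaces were apart by more than the range within either group. Its mean fell 1.42-fold, from 58.4 ± 3.18 to 41.2 ± 2.71 CPM (−0.50 with an SE of 0.09, edgeR adjusted p = 0.0072). Tnfrsf1a encodes TNFR1, the death domain receptor found on most cell types, and was at 79.1, 63.5 and 67.1 CPM in the TH libraries and 75.0, 75.2 and 77.3 CPM in THCaP. TH replicate 1 was above all THCaP libraries and the other TH libraries were below them. The mean was 69.9 ± 8.22 CPM in the TH libraries and 75.8 ± 1.27 CPM in THCaP (0.12 with an SE of 0.09, edgeR adjusted p = 0.377), and without TH replicate 1 the log2 fold change was 0.21 (adjusted p = 0.0607). Tnfrsf1a lies on chromosome 6 at 125349362 to 125362484, plus strand. Near it, at 125306571 to 125313885 on the minus strand, lies Ltbr, the lymphotoxin beta receptor gene, which was at 57.5, 46.0 and 47.1 CPM in the TH libraries and 54.2, 54.9 and 54.5 CPM in THCaP (0.12 with an SE of 0.10, edgeR adjusted p = 0.399). Tnfrsf1b lies on chromosome 4 at 145213463 to 145246870, minus strand.

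The 250 bases before the starts of these receptors are shown side by side because Tnfrsf1b fell and Tnfrsf1a was not called. The Tnfrsf1b window is chr4:145246871-145247120, minus strand, and the Tnfrsf1a window is chr6:125349473-125349722, plus strand (RefSeq, GRCm38.p6). Capitals mark a match to GAAANNGAAA on the opposite strand at −10 to −1 of Tnfrsf1b. The window of Tnfrsf14, which was not called, also held a match to GAAANNGAAA on the opposite strand, at −64 to −55. A part of this motif in the change was not tested. The Tnfrsf1b window also held 2 GC boxes, and the Tnfrsf1a window held none of the motifs searched.
Tnfrsf1b promoter: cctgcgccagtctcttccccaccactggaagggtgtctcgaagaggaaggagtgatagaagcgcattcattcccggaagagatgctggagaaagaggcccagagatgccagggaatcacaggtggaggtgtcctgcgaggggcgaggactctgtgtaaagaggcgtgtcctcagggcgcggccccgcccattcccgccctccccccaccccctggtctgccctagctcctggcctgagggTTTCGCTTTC
Tnfrsf1a promoter: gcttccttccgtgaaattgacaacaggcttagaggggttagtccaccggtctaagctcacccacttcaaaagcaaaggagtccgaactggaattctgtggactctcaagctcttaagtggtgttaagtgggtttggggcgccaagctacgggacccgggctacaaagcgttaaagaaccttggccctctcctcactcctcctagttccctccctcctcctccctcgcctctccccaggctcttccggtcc

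Fas, the death receptor of Fas ligand, was the sparsest of the 10 genes, with 50, 80 and 43 counts in TH replicates 1 to 3 and 8, 5 and 15 counts in THCaP replicates 1 to 3. These are 1.67, 2.88 and 1.54 CPM against 0.280, 0.167 and 0.511 CPM. The fewest counts in a TH library were well above the most in a THCaP library. The mean fell 6.29-fold, from 2.03 ± 0.740 to 0.320 ± 0.175 CPM (−2.65 with an SE of 0.43, edgeR adjusted p = 0.00582). This was the largest log2 fold change of the 10 and the least precise. Without a filter the log2 fold change was again −2.65 (edgeR adjusted p = 0.000654), and on log2(FPKM + 1), which compresses low values, it was −0.67. Fas lies on chromosome 19 at 34290666 to 34327772, plus strand.

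Tnfrsf10b, the mouse receptor of the death ligand TRAIL, was at 6.78, 7.71 and 7.56 CPM in the TH libraries and 5.67, 5.48 and 6.71 CPM in THCaP. The highest THCaP library was close to the lowest TH library. The means were 7.35 ± 0.497 and 5.96 ± 0.663 CPM (−0.30 with an SE of 0.15, edgeR adjusted p = 0.153). Tnfrsf14, the receptor HVEM, which binds LIGHT and the inhibitory receptor BTLA, was at 6.82, 10.1 and 8.20 CPM in the TH libraries and 5.95, 5.95 and 8.90 CPM in THCaP, with overlapping groups. Its means were 8.38 ± 1.66 and 6.93 ± 1.70 CPM (−0.27 with an SE of 0.20, edgeR adjusted p = 0.349). Tnfrsf10b lies on chromosome 14 at 69767472 to 69784411, plus strand, and Tnfrsf14 on chromosome 4 at 154921933 to 154928563, minus strand. At these levels the SE is too wide to show that either gene was alike on the surfaces.

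Within the THCaP group, THCaP replicate 3 held the highest CPM of its group for 9 of the 10 genes. Tnf was the exception: it was lowest in THCaP replicate 3 (80.2 CPM) and highest in THCaP replicate 2 (102 CPM). THCaP replicate 2 was the lowest of its group for 6 genes, Tnfsf9, Tnfrsf9, Cd40, Tnfrsf1b, Fas and Tnfrsf10b. Leaving out THCaP replicate 3 moved the log2 fold change of Tnf to −0.40 and leaving out THCaP replicate 2 moved it to −0.57. These are ranks of 3 libraries and carry no test, and the same ranks over all tested genes were not counted. THCaP replicates 2 and 3 also differed the most of all replicate pairs over the whole table (chi-square per degree of freedom 48.4). Whether the ranks are particular to these genes was not tested.

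Levels of different genes were compared per length, as the FPKM that the authors deposited, which is a count scaled by gene length and library total. On TH the order of means was Tnfrsf9 (78.1 FPKM), Tnf (73.8), Tnfsf9 (46.3), Tnfrsf12a (38.4), Tnfrsf1a (31.8), Cd40 (19.6), Tnfrsf1b (11.6), Tnfrsf10b (2.27), Tnfrsf14 (1.66) and Fas (0.816). The libraries of Tnfrsf9 and Tnf overlapped in this order, and all other neighbours were apart. On THCaP the order of mean FPKM was Tnf (55.2), Tnfrsf1a (35.8), Tnfrsf9 (32.7), Tnfsf9 (27.4), Tnfrsf12a (22.1), Tnfrsf1b (8.53), Cd40 (6.22), Tnfrsf10b (1.91), Tnfrsf14 (1.43) and Fas (0.133). There, each of Tnfrsf1a, Tnfrsf9, Tnfsf9 and Tnfrsf12a overlapped its neighbours among these 4, and the pairs Tnfrsf1b with Cd40 and Tnfrsf10b with Tnfrsf14 overlapped too. Tnfrsf1a thus ranked 5 of 10 on TH, below Tnfrsf9, and overlapped Tnfrsf9 on THCaP.

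**Figure D2:**
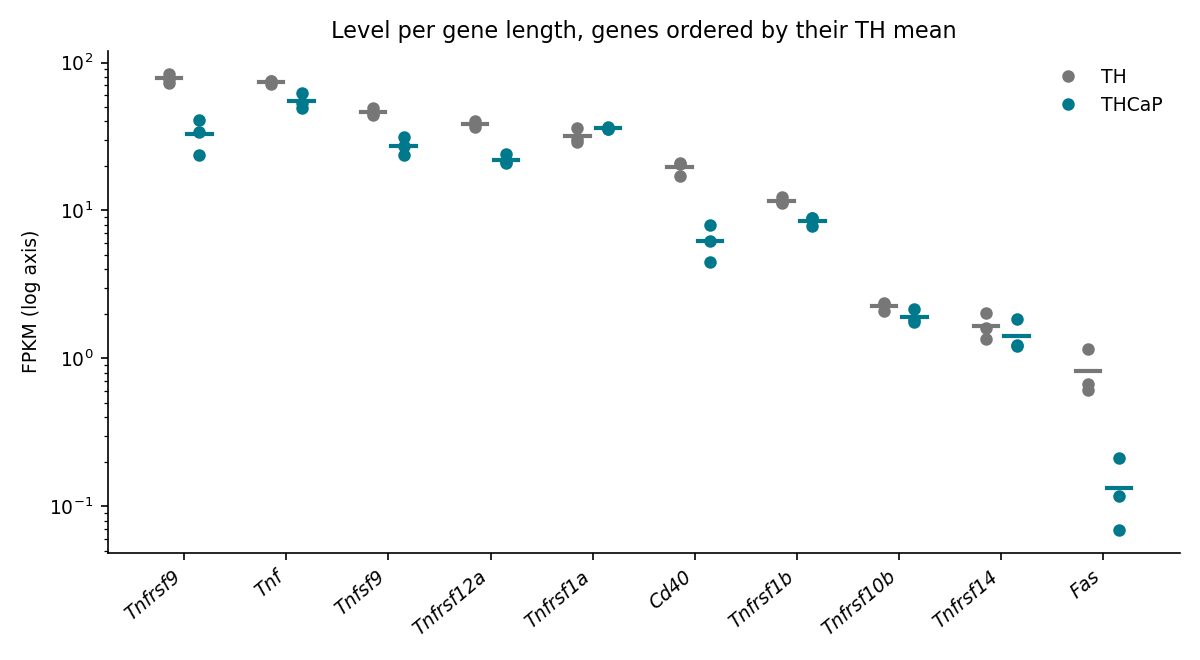
FPKM on a log axis for the 10 genes, ordered by their TH mean; points are the 3 libraries of each surface and lines are means. The means span from 78.1 for Tnfrsf9 to 0.816 for Fas on TH and from 55.2 for Tnf to 0.133 for Fas on THCaP.

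Ratios of FPKM within a library need no scaling between libraries. The ratio of Tnfrsf1b to Tnfrsf1a was 0.309, 0.396 and 0.405 on TH and 0.249, 0.222 and 0.243 on THCaP, a log2 difference of −0.63. The ratio of Cd40 to Tnfrsf1a was 0.475, 0.707 and 0.695 on TH and 0.174, 0.126 and 0.219 on THCaP (log2 difference −1.87). The ratio of the receptor Tnfrsf9 to its ligand Tnfsf9 was 1.72, 1.64 and 1.70 on TH and 1.23, 0.998 and 1.30 on THCaP (log2 difference −0.53). In each of these 3 ratios all THCaP libraries lay below all TH libraries. The exact two-sided permutation p was 0.1 for each, also after adjustment over the 3, which is the smallest that 3 against 3 libraries can give.

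**Figure D3:**
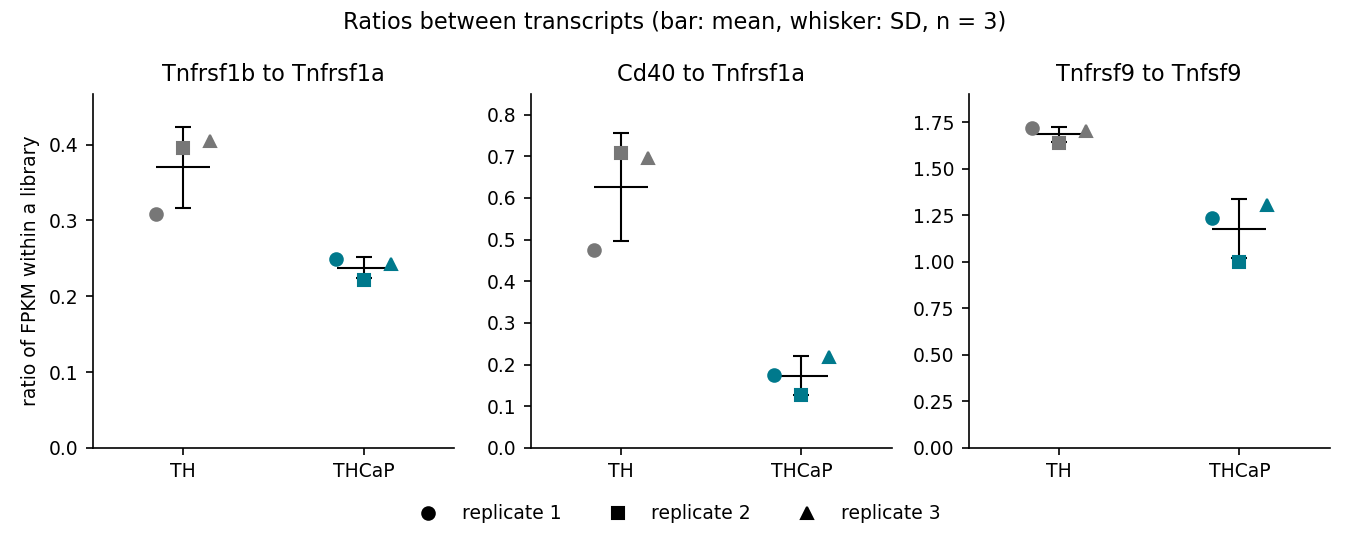
Ratio of the FPKM of 2 genes in each library, on linear axes from 0. Points are libraries (shape gives the replicate), bars are means and whiskers are SD; every THCaP library lies below every TH library in all 3 ratios, for example at 0.998 to 1.30 against 1.64 to 1.72 for Tnfrsf9 to Tnfsf9.

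Of 36 further ligand and receptor genes of the superfamily, 28 were in the table and 16 passed the filter. Among 4 tested ligands Ltb fell and 0 rose. Among 12 tested receptors 3 fell and 0 rose, beside 12.0% lower and 11.6% higher over all tested genes. Without THCaP replicate 3, 5 of the 12 were lower and 1 was higher, where all genes gave 2020 lower and 2145 higher. Without TH replicate 1, 3 were lower and 1 was higher, and without any other single library 2 were lower and 0 were higher. Over all genes, 1378 were lower without TH replicate 1 and 465 to 937 without any of those other libraries. Tnfrsf11a, the receptor RANK through which osteoclast precursors sense RANK ligand, was at 139, 138 and 139 CPM in the TH libraries and 113, 107 and 120 CPM in THCaP (−0.29 with an SE of 0.08, edgeR adjusted p = 0.0245). Leaving out any of TH replicates 2 and 3 and THCaP replicates 1 and 2 ended that call (largest adjusted p 0.110). The decoy receptor gene Tnfrsf23 (−0.50, SE 0.09) and the related Tnfrsf26 (−0.76, SE 0.11) fell as well. They lie in a row on chromosome 7 with Tnfrsf22 (−0.23 with an SE of 0.10, edgeR adjusted p = 0.107). These neighbours resemble each other in sequence, so their reads may have been split or lost in the counting, and Tnfrsf23 and Tnfrsf26 share exonic bases with a gene on the other strand.

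Taking all 26 tested genes of the superfamily together, 11 fell, 0 rose and 15 were not called. Over all tested genes 12.0% were lower and 11.6% higher. The 11 include 7 of the 10 genes described above, and outside these 10 the share was smaller, 1 of 4 ligands and 3 of 12 receptors. Among the 18 with a mean of at least 5 CPM, 10 fell, beside 13.0% of the 9690 genes of that level. The filter was passed through TH alone by 3 of the 26, Fas, Tnfsf12 and Tnfrsf13c. The 12 genes below the filter had at most 40 counts summed over a group, among them Tnfsf11, the gene of RANK ligand, with 1 count on TH and 0 on THCaP, and Fasl with 1 and 4.

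**Figure D4:**
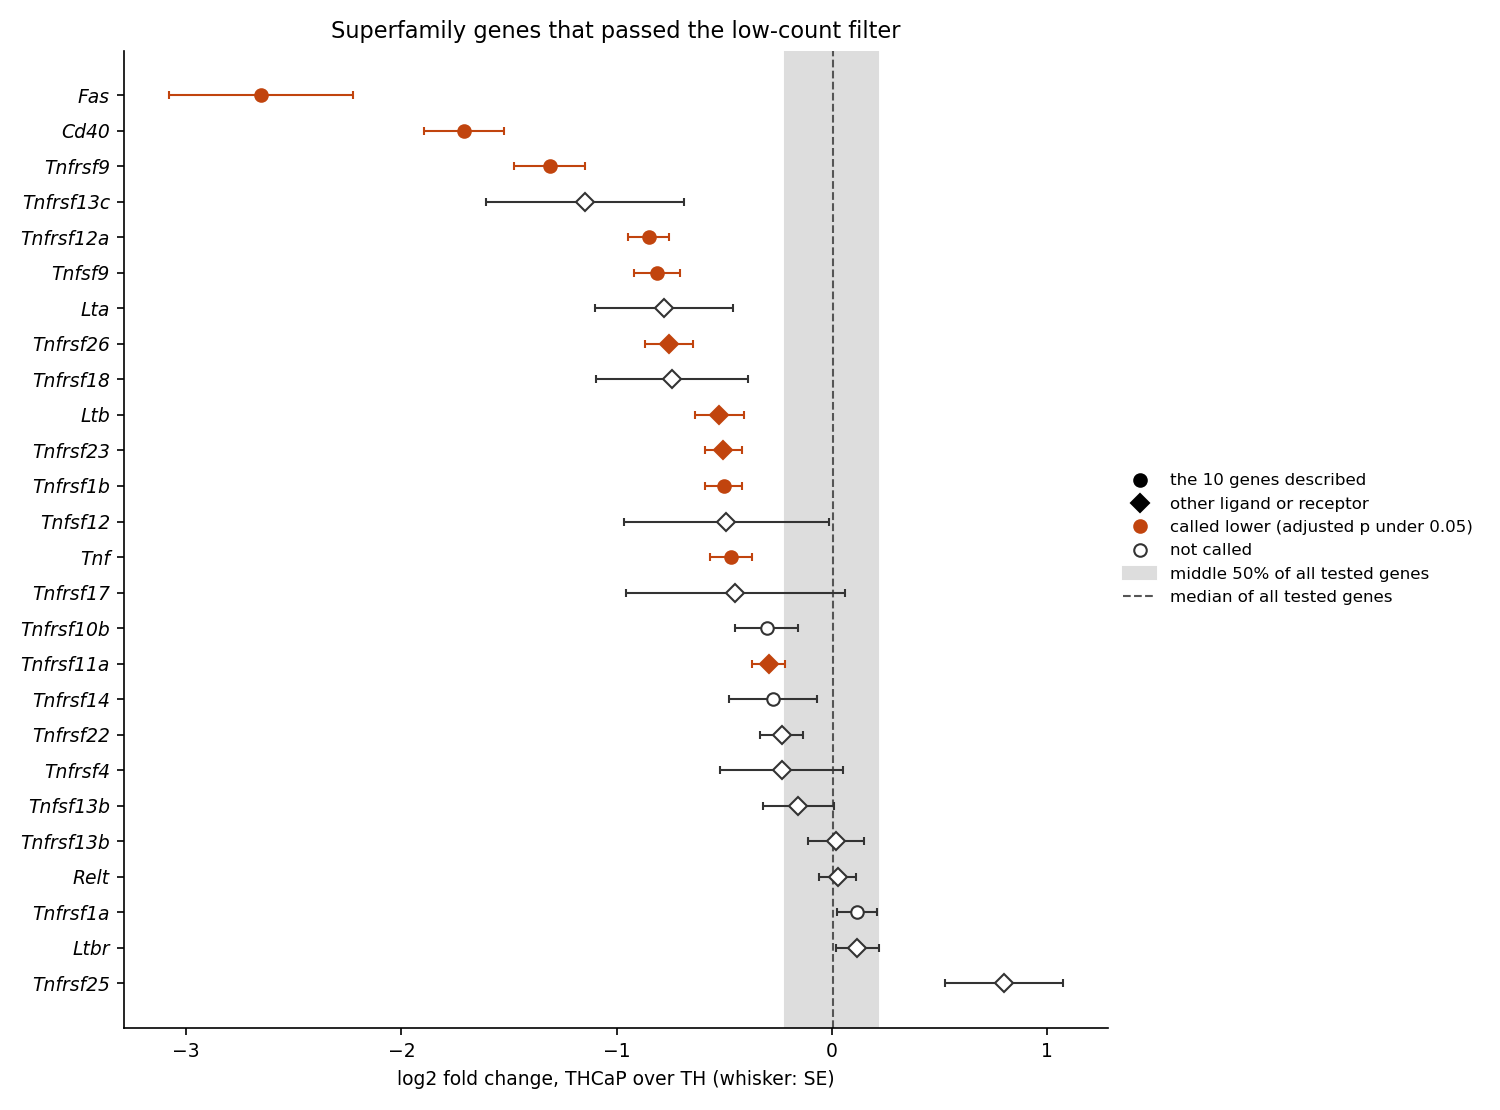
Log2 fold change of THCaP over TH with its SE for the 26 superfamily genes that passed the low-count filter. Circles are the 10 genes described and diamonds are other ligands and receptors. Filled orange symbols were called lower, and the grey band holds the middle 50% of all tested genes (−0.22 to 0.21). Of the 26 genes 21 lie below 0, beside a median of 0.0064 over all tested genes.

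Of 35 genes of receptor-proximal signalling, all tested, 10 fell, 2 rose and 23 were not called, with a median of −0.11, where 12.0% of all tested genes were lower and 11.6% higher. The number lower was 6 without TH replicate 3 or THCaP replicate 1, where 490 and 465 of all genes were lower in place of 1376. Traf1, an adaptor of TNFR2, CD40 and 4-1BB, went from 48.2 ± 1.82 to 21.4 ± 3.74 CPM (−1.17 with an SE of 0.12, edgeR adjusted p = 0.0014). Cflar, the FLIP inhibitor of caspase-8, went from 329 ± 67.4 to 150 ± 29.8 CPM (−1.14, SE 0.18). The ubiquitin ligase gene Birc3 (−0.90, SE 0.10) and Tnfaip3, which encodes the NF-κB inhibitor A20 (−0.75, SE 0.15), also fell. Fadd, the death domain adaptor of FAS and TRAIL receptors, rose from 5.81 ± 0.485 to 10.1 ± 1.07 CPM (0.79 with an SE of 0.14, edgeR adjusted p = 0.00753), in all 3 THCaP libraries above all TH libraries. The other gene that rose was the kinase gene Ripk1 (0.37 with an SE of 0.09, edgeR adjusted p = 0.0223), named after its value was seen. The number higher was 1 with any of TH replicates 2 and 3 and THCaP replicate 1 left out, and 4 with THCaP replicate 3 left out. Over all genes it was 291 to 294 in the former fits and 2145 in the latter, against 1333 in the main fit. Tradd, the adaptor of TNFR1, stood at a log2 fold change of 0.08 (SE 0.10, edgeR adjusted p = 0.594).

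Genes that control release of TNF and decay of its RNA were lower in part. Of 14 tested, 6 fell and 1 rose, with a median of −0.32, against all-gene shares of 12.0% lower and 11.6% higher. The number lower was 2 without TH replicate 2, 3 without TH replicate 3 and 2 without THCaP replicate 1. Over all genes these fits called 506, 490 and 465 lower, against 1376 in the main fit. Zc3h12a, which encodes the ribonuclease regnase-1, went from 54.6 ± 1.14 to 31.1 ± 5.60 CPM (−0.81 with an SE of 0.12, edgeR adjusted p = 0.00465). Zfp36, whose product is known to bind nonamers such as those printed above, went from 438 ± 44.3 to 296 ± 54.0 CPM (−0.57 with an SE of 0.13, edgeR adjusted p = 0.0177). Leaving out any of TH replicates 1 and 2 and THCaP replicate 1 ended its call (largest adjusted p 0.0623). Rhbdf2, whose product iRhom2 brings ADAM17 to the cell surface, fell by 0.41 on the log2 scale (SE 0.07, edgeR adjusted p = 0.00753). Rhbdf1 (−0.66, SE 0.14) and Rc3h1 (−0.57, SE 0.17) were also called, the latter with overlapping groups. Leaving out any of TH replicates 2 and 3 and THCaP replicate 1 ended the call of Rhbdf1 (largest adjusted p 0.0558), and these or THCaP replicate 2 that of Rc3h1 (largest 0.136). The sheddase gene Adam17 (−0.34 with an SE of 0.08, edgeR adjusted p = 0.0191) fell, and the gene that rose was Zfp36l2 (0.28 with an SE of 0.08, edgeR adjusted p = 0.0336). Both were named after their values were seen. Adam17 was not called without TH replicate 2 or THCaP replicate 1, where Zc3h12a and Rhbdf2 were the 2 genes called lower. It was also not called without TH replicate 3, where the 3 genes called lower were these and Zfp36. The number higher was 0 with any of TH replicates 2 and 3 and THCaP replicate 1 left out, and 2 with THCaP replicate 3 left out. Over all genes it was 291 to 294 in the former fits and 2145 in the latter, against 1333 in the main fit.

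NF-κB target genes fell in 22 of 29 tested cases, rose in 0 and were not called in 7, with a median of −0.75 (12.0% lower and 11.6% higher over all tested genes). The log2 fold change was negative in 26 of the 29, and this list too was written with earlier results of these data known. On log2(FPKM + 1) without a filter, 17 were called lower. The chemokine gene Ccl5 (−2.38, SE 0.17), the prostaglandin synthase gene Ptgs2 (−1.92, SE 0.21), Traf1 and the IκB family gene Bcl3 (−1.15, SE 0.11) led the genes with at least 5 CPM. The chemokine receptor-like gene Ccrl2 followed (−0.96, SE 0.22), with a call lost without TH replicate 2 or TH replicate 3 (adjusted p up to 0.0581). Without TH replicate 1, 1 gene of this list was called higher. Traf1, Birc3, Tnfaip3 and Tnip1 stand both in this list and in the receptor-proximal list, and Casp8 and Xiap both in the latter and among the cell death genes, so the counts are not independent.

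Of 15 cell death genes, all tested, 4 rose and 1 fell, with a median of 0.097, beside 11.6% of all tested genes higher and 12.0% lower. Mcl1, an anti-apoptotic BCL2 relative, fell from 1354 ± 59.4 to 909 ± 111 CPM (−0.57 with an SE of 0.10, edgeR adjusted p = 0.00675). Diablo, whose product binds inhibitor of apoptosis proteins (0.34 with an SE of 0.11, edgeR adjusted p = 0.0451), and the anti-apoptotic gene Bcl2 (0.32 with an SE of 0.10, edgeR adjusted p = 0.0476) were among those that rose. With any of TH replicates 2 and 3 and THCaP replicates 1 and 2 left out, 0 genes of the list were called higher (largest adjusted p 0.169 for Diablo), and Bcl2 was not called without any 1 of the 6 libraries. Over all genes, 294 were higher without TH replicate 2 or 3, 291 without THCaP replicate 1 and 734 without THCaP replicate 2. The main fit called 1333 higher. Casp8, the caspase recruited by FADD, was not called (0.19 with an SE of 0.09, edgeR adjusted p = 0.133).

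**Figure D5:**
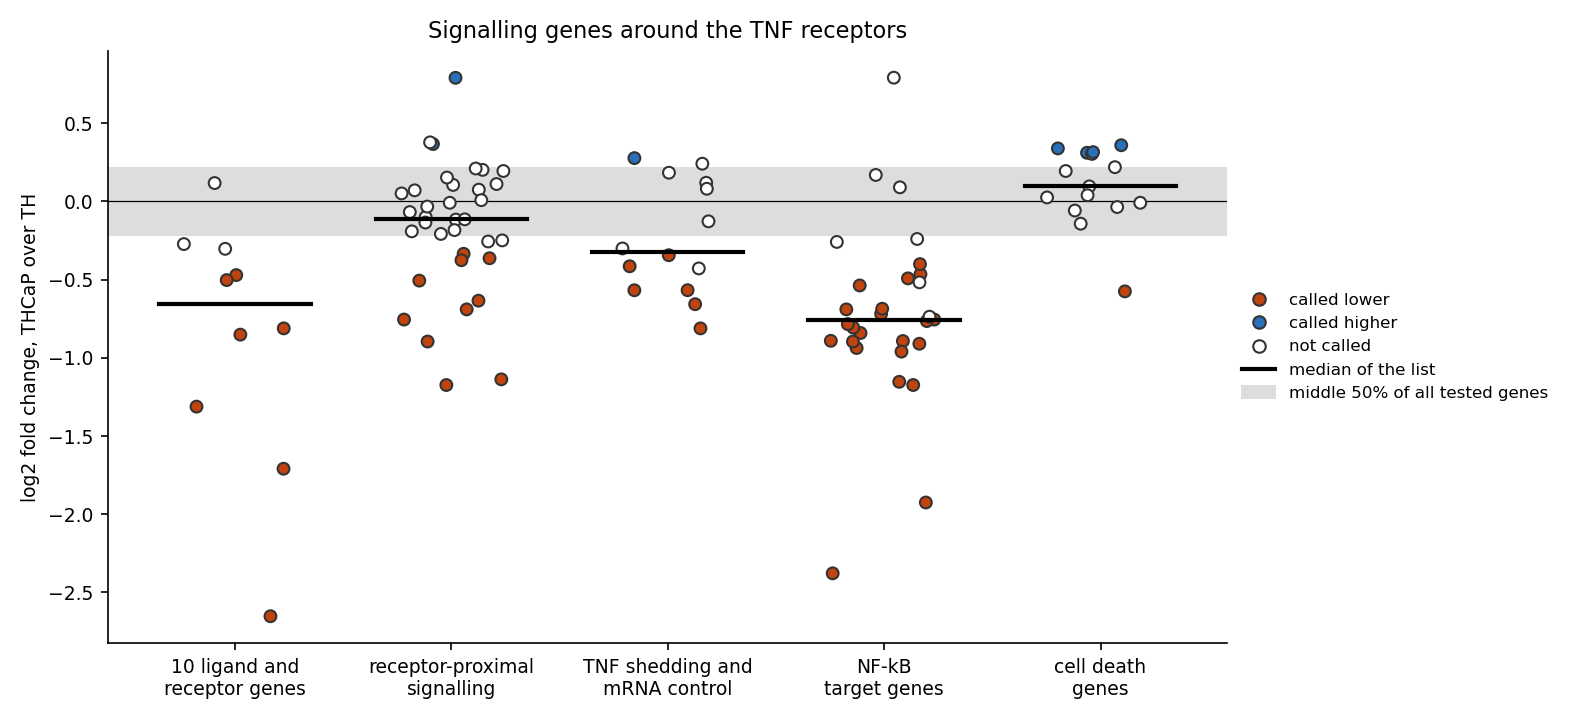
Log2 fold change of THCaP over TH for each tested gene of 5 groups; orange was called lower, blue called higher and white not called. The bars are medians (−0.66, −0.11, −0.32, −0.75 and 0.097 from left to right) and the grey band holds the middle 50% of all tested genes.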

How the data were processed

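RNA of 6 Raw264.7 samples was sequenced by the submitters. The submitters' processing notes name fastp, HISAT2, HTSeq and mm10. Tool versions, the annotation and the strand setting: not given in the sources used here. The authors deposited whole-number read counts per gene symbol, not normalised, and FPKM values, which equal these counts divided by a whole-number gene length and the library total. The count test ran in edgeR 4.0.16 under R 4.3.3. Genes were kept by filterByExpr (count of 10, total of 15), TMM factors were used, and a robust quasi-likelihood F test set THCaP against TH over 6 libraries without covariates. Benjamini-Hochberg adjustment covered 11480 genes and calls were made at 0.05. SE is the absolute log2 fold change over the square root of F. The fit was tested on simulated counts in which every gene had the same spread setting and libraries differed only in total and group. That check does not cover the uneven differences between the replicates of these data. No 2 replicates were alike within sampling noise (chi-square per degree of freedom 3.84 to 48.4, pairwise, on genes with 10 counts or more). Each library counted as 1 replicate, but this spread does not show that they came from independent cultures.

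The 10 genes and the lists were chosen with earlier results of these data known. Each list's named genes are the up to 5 called ones of largest change whose mean reached 5 CPM; some of these are not reported here. Alternatives were DESeq2 1.42.0, limma-voom (limma 3.58.1), RLE factors, library totals, no filter and a filter of 5 CPM in 3 libraries. Others were limma on FPKM after adding 1 or 0.1 and taking log2, restricted to a mean FPKM of 1 or more, and once unrestricted with 1 added. The replicate number also served as a block, and every library was dropped once. Promoters came from RefSeq (GRCm38.p6), positions and transcripts from GENCODE vM21.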

Additional observations from a re-analysis of the deposited data

How the results depend on the processing

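The 7 lower and 0 higher calls among the 10 genes ranged from 6 to 7 and stayed at 0 over 16 alternatives. Of the 10 genes, 9 kept their side of the threshold in every alternative that tested them; Fas was not tested in 3 of the 16, and Tnf is described above. No call changed sign among the 10 genes and the 23 list genes chosen by the rule given above. Ripk1, Adam17 and Zfp36l2 were not among these. The replicate number as a block gave 1457 lower and 1424 higher genes in place of 1376 and 1333. Deviations of same-numbered libraries correlated at −0.040, −0.11 and 0.10 for numbers 1, 2 and 3. The libraries of number 3 correlated best with each other, and those of numbers 1 and 2 correlated best with other numbers. Deviations within a group of 3 libraries are not independent, so these correlations cannot tell if the numbers pair the samples. Limma on log2(FPKM + 1) without a filter called 530 lower and 729 higher genes overall; it gave 0 lower and 1 higher among the other ligands, 5 lower and 1 higher in receptor-proximal signalling, 2 lower among shedding and RNA control genes and 1 higher among cell death genes. The unfiltered edgeR fit called 1 other ligand higher. DESeq2 and library totals each called 1 other receptor higher. Library totals and both filtered FPKM fits called 3 shedding and RNA control genes higher.

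Without each library in turn, the genes called lower numbered 465 to 2020 and those called higher 291 to 2145. The other ligands ranged from 0 to 1 lower with 0 higher, other receptors from 2 to 5 lower and 0 to 1 higher, receptor-proximal genes from 6 to 11 lower and 1 to 4 higher, shedding and RNA control genes from 2 to 8 lower and 0 to 2 higher, NF-κB targets from 19 to 22 lower and 0 to 1 higher, and cell death genes at 1 lower and 0 to 5 higher. The ratios kept their direction, with log2 differences from −0.75 to −0.56 for Tnfrsf1b to Tnfrsf1a, −2.06 to −1.66 for Cd40 to Tnfrsf1a and −0.60 to −0.41 for Tnfrsf9 to Tnfsf9. The number of genes called fell or rose depending on the library left out, and the cause of these shifts was not tested. Each such fit used fewer libraries than the main one. Fas had the fewest counts of the 10 genes, 173 over TH and 28 over THCaP, and the widest SE, 0.43.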

Other observations

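Tnfsf14, which encodes LIGHT, a ligand of the Tnfrsf14 product, was below the filter. It had 4, 3 and 4 counts in TH replicates 1 to 3 and 9, 15 and 16 counts in THCaP replicates 1 to 3, so the THCaP libraries were all higher, opposite to the 7 genes that fell. Without a filter edgeR gave a log2 fold change of 1.79 (SE 0.55, adjusted p = 0.0321). Tnfrsf25, the death receptor DR3, had 50, 28 and 32 counts on TH and 65, 79 and 52 counts on THCaP (0.80, SE 0.27, edgeR adjusted p = 0.0595). It was called higher by DESeq2 (adjusted p = 0.0469), with library totals (0.0468), without TH replicate 1 (0.0423) and without THCaP replicate 3 (0.0283). Both genes were chosen for mention after their values were seen.

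The gene length implied by the deposited counts and FPKM of Tnfrsf14 was 4944 bases, against 1438 annotated exonic bases in GENCODE vM21. For Tnfrsf1b it was 4926 against 3818 bases, for Cd40 1778 against 3406 bases and for Tnfrsf10b 3179 against 5451 bases. For Tnfrsf12a it was 965 against 1932 bases. The order of these genes per length therefore rests on the authors' gene models. The count fits do not use the lengths, whereas the alternatives fitted on FPKM do.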
